A study of Mus musculus with 8 samples.

Results

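The mitochondrial ribosomal proteins build the ribosome that works inside mitochondria. They were taken here as every gene of the probe annotation whose single symbol starts with Mrpl or Mrps followed by a digit, which gave 77 of the 19938 genes measured, 48 named for the large subunit and 29 for the small subunit. Symbols chose the genes. In 8 of the 77, which had 2 probe sets each (a probe set is a group of probes read as 1 value), the probe set was chosen by its mean level over all 8 arrays, the brighter being kept, so levels are given as a description only. The difference between the groups was not part of the rule, but the list was proposed with earlier results of these arrays known.

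The arrays compared macrophages loaded with acetylated low-density lipoprotein (acLDL), a chemically modified lipoprotein that these cells take up through scavenger receptors, with unloaded macrophages of the same kind, on 4 arrays each. All cells came from the peritoneal cavity of C57BL/6J mice 5 days after an injection of thioglycollate, a broth that draws macrophages into the cavity, and were then cultured. How the loading was done is not settled: one source among the labels gives 20 µg/mL acLDL and 3 days in culture, another 50 µg/mL and 2 days. The series text calls the arrays of a condition independent biological replicates, but the number of mice behind each culture is not given, so p-values measure the spread between these samples.

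All proteins of the mitochondrial ribosome are encoded in the nucleus, made in the cytosol and imported, and they are assembled on ribosomal RNAs that the mitochondrial genome encodes. The finished ribosome translates a small set of membrane proteins of the respiratory chain and the ATP synthase. Many members descend from proteins of bacterial ribosomes, and others exist only in mitochondria.

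Values are deposited log2 expression values, so that a difference of 1 is a doubling, and levels of different genes are not compared because each probe set has its own brightness. Correlations across genes were 0.994 to 0.997 between arrays of 1 group and 0.989 to 0.991 between groups. Macrophage marker genes had mean levels of 10.60 to 10.65 on acLDL arrays and 10.33 to 10.45 on unloaded arrays over 8 genes. By the call defined below 4 of them rose and 1 fell (50% and 12.5%), beside 12.9% and 10.5% of all genes tested. Fcgr1, Itgam, Adgre1 and Mertk rose, with log2 differences (acLDL minus unloaded) of 0.71, 0.63, 0.59 and 0.33. Cd14 fell, at -0.33, and Lyz2, Csf1r and Cd68 did not pass. Of 29 measured markers of 7 other cell types, 1 rose and 3 fell (3.45% and 10.3%). Among these 29 markers 9 lay above 6.12, the 95th percentile of the mean levels of 1027 olfactory receptor genes, which serve as a gauge of background. The mean level of the 29 markers was 6.04 to 6.11 on acLDL arrays and 6.07 to 6.16 on unloaded arrays. That of the fibroblast and mesothelial markers among them was 8.05 to 8.17 on acLDL arrays and 8.06 to 8.17 on unloaded arrays. The part of these cells in the results below was not tested. A lower signal in bulk RNA can come from fewer cells of a type or from less RNA per cell, and these cannot be told apart.

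Many genes of both subunits were higher in loaded cells. In the large subunit 25 of 48 genes rose, Mrpl24 fell and 22 had no call, and in the small subunit 13 of 29 rose, 0 fell and 16 had no call. The call was a limma adjusted p under 0.05, with Benjamini-Hochberg adjustment over all 19938 genes. Across all genes tested 12.9% rose and 10.5% fell by the same rule, against 52.1% and 2.08% of the large-subunit genes and 44.8% and 0% of the small-subunit genes. An unadjusted limma p under 0.05 was reached by 33 large-subunit and 18 small-subunit genes, and by 6881 of all 19938 genes tested. Among the 11653 genes above the olfactory 95th percentile, a comparison added after the values were seen, 19.6% rose and 13.9% fell. Of the 77 members 75 lay above that level, all except Mrpl22 and Mrpl47.

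The median log2 difference, acLDL minus unloaded, was 0.24 in the large subunit and 0.22 in the small subunit, beside -0.0031 over all genes tested. The sign was positive in 43 of 48 large-subunit and 27 of 29 small-subunit genes, and in 49.3% of all genes. Most changes were small: 6 members rose by at least 1.5-fold, 3 in each subunit, which is 7.79% of the members, beside 1.33% of all genes.

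**Figure D1:**
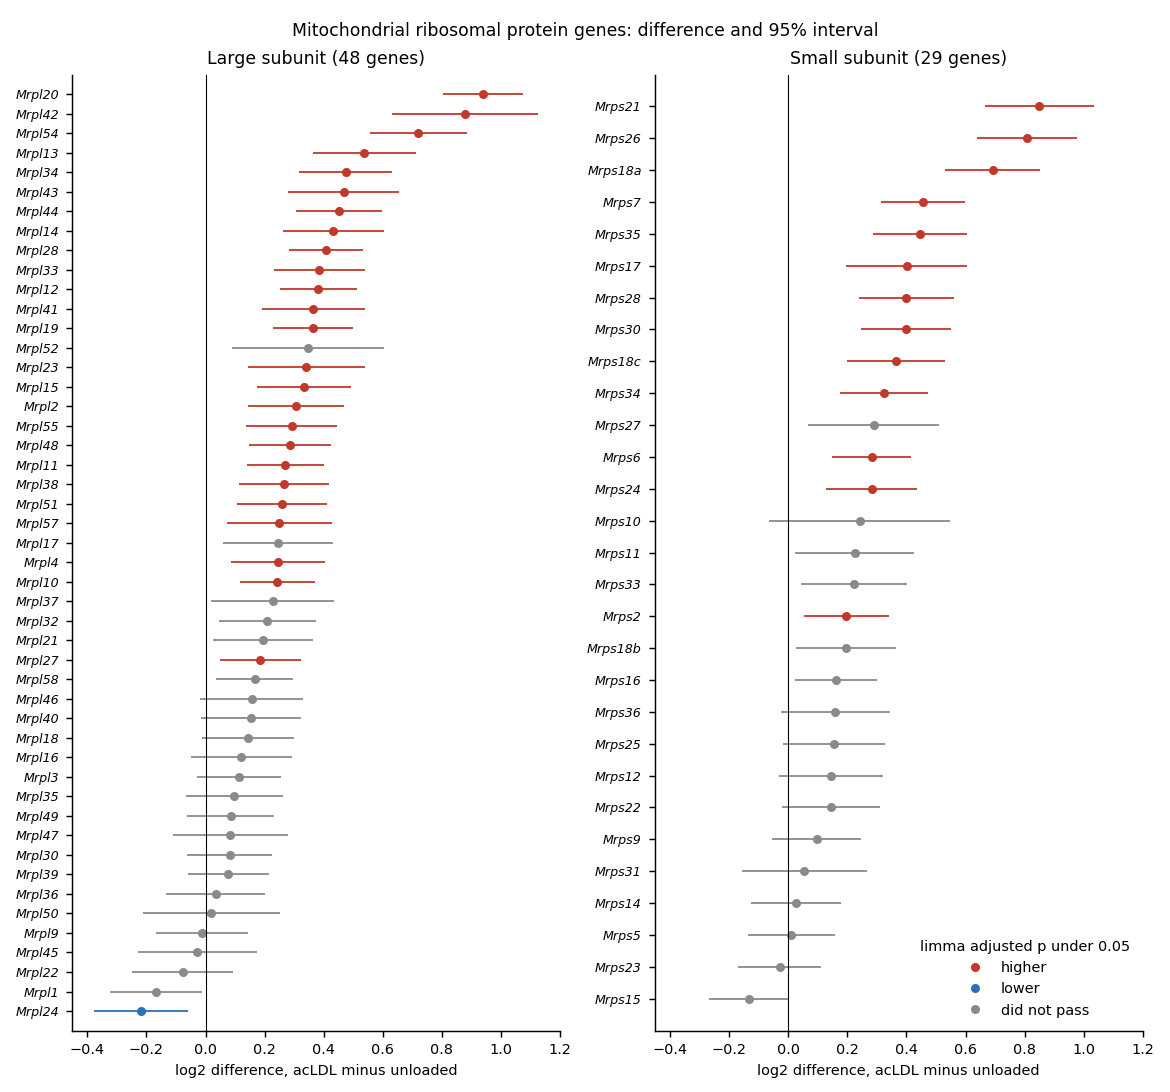
Log2 difference, acLDL minus unloaded (horizontal axis), of each mitochondrial ribosomal protein gene, large subunit on the left and small subunit on the right. Points are differences between the means of 4 acLDL and 4 unloaded arrays, lines are 95% intervals from limma, red marks the 25 and 13 genes that rose, blue the 1 gene that fell and grey the genes that did not pass.

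The quartiles of the log2 differences were 0.11 and 0.36 in the large subunit and 0.14 and 0.40 in the small subunit, beside -0.11 and 0.11 over all genes tested. A difference between the subunits was not tested.

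**Figure D2:**
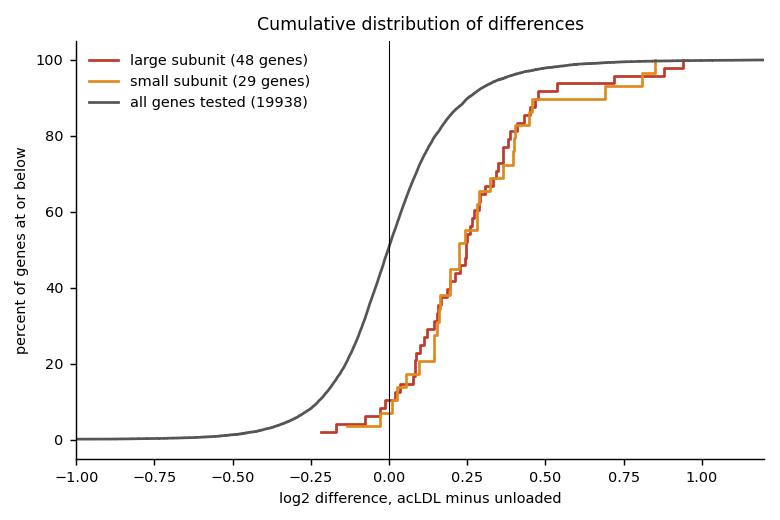
Percent of genes (vertical axis) at or below a given log2 difference, acLDL minus unloaded (horizontal axis, shown from -1 to 1.2), for 48 large-subunit genes, 29 small-subunit genes and all 19938 genes tested. The subunit curves cross 50% at 0.24 and 0.22, to the right of the curve of all genes.

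The arrays can also be compared without a model. All 4 acLDL arrays lay above all 4 unloaded arrays in 26 large-subunit and 13 small-subunit genes, which is 54.2% and 44.8%, beside 14.0% of all genes. They lay below in Mrpl24 and Mrpl1, that is in 2 of 77 members, beside 11.6% of all genes. The highest of the 8 values fell on an acLDL array in 67 members, and the share over all genes is not given here.

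The large subunit holds the site where peptide bonds form and the tunnel through which the new chain leaves. Its largest rise was in Mrpl20, a relative of a bacterial protein that binds ribosomal RNA early in assembly. Mrpl20 had log2 levels of 8.26, 8.28, 8.23 and 8.41 on acLDL arrays 1 to 4, against 7.33, 7.34, 7.32 and 7.43 on unloaded arrays 1 to 4. The groups lay far apart relative to their spread, with a 1.92-fold rise (log2 difference 0.94, 95% interval 0.80 to 1.07, limma adjusted p = 3.88e-07). Mrpl42, found only in mitochondrial ribosomes, had 6.55, 6.95, 6.84 and 6.84 on acLDL arrays, against 6.26, 5.96, 5.76 and 5.70 on unloaded arrays (log2). The array numbered 1 of each group came closest to the other group, and the rise was 1.84-fold (log2 difference 0.88, interval 0.63 to 1.13, limma adjusted p = 0.000112). The unloaded mean of Mrpl42, 5.92, lay below the olfactory 95th percentile. Mrpl54, another mitochondria-specific protein, had 8.04, 8.04, 7.97 and 7.86 on acLDL arrays, against 7.33, 7.27, 7.06 and 7.37 on unloaded arrays (log2). Unloaded array 3 was the lowest, and the rise was 1.65-fold (log2 difference 0.72, interval 0.56 to 0.88, limma adjusted p = 2.2e-05).

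**Figure D3:**
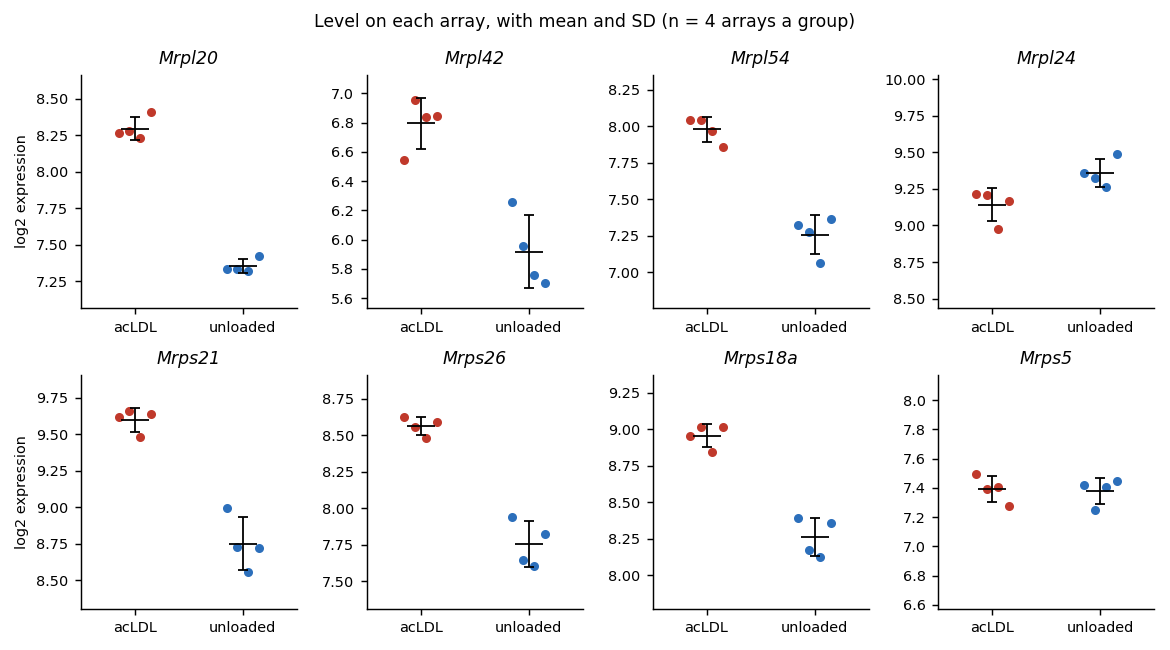
Log2 level (vertical axis, each panel 1.6 log2 units high) on each of 4 acLDL arrays (red, left) and 4 unloaded arrays (blue, right) for the 6 genes that rose by at least 1.5-fold, for Mrpl24, which fell, and for Mrps5, whose log2 difference was 0.01. Black marks give the mean and SD of 4 arrays, and of these 8 genes only Mrps5 has groups that overlap.

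The next 3 rises of the large subunit were in Mrpl13, Mrpl34 and Mrpl43. Mrpl13, a relative of a bacterial protein that helps to start assembly of the large subunit, had 7.40, 7.59, 7.57 and 7.62 on acLDL arrays, against 7.16, 7.02, 6.80 and 7.04 on unloaded arrays (log2). Mrpl34, whose bacterial relative is a very short protein, had 7.50, 7.59, 7.35 and 7.39 on acLDL arrays, against 6.95, 7.11, 6.98 and 6.88 on unloaded arrays (log2). Mrpl43, a mitochondria-specific protein, had 7.81, 7.77, 7.73 and 7.57 on acLDL arrays, against 7.51, 7.15, 7.16 and 7.18 on unloaded arrays (log2). The groups did not overlap in any of the 3, and the log2 differences were 0.54, 0.47 and 0.47 (largest limma adjusted p = 0.00149). The other 19 large-subunit genes that rose did so by 0.18 to 0.45 on the log2 scale, down to Mrpl27 with a limma adjusted p of 0.04998. The call of Mrpl27 was lost in 14 of 21 alternatives, among them a replicate block (limma adjusted p = 0.0757) and the use of its other probe set (limma adjusted p = 0.133). Mrpl57, a mitochondria-specific member, rose (log2 difference 0.25, limma adjusted p = 0.0415) although its groups overlapped.

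Across the large subunit 52.1% of genes rose, beside 12.9% of all genes tested. The proteins of its stalk, which calls in translation factors, rose in 3 of 3 genes. Mrpl12, which forms the flexible part of the stalk, had 7.97, 7.99, 7.93 and 8.02 on acLDL arrays, against 7.52, 7.64, 7.56 and 7.66 on unloaded arrays (log2). Its log2 difference was 0.38, beside 0.24 for Mrpl10, its anchor, and 0.27 for Mrpl11, at the base of the stalk. Of 6 genes listed around the exit of the peptide tunnel, 1 rose, 1 fell and 4 did not pass. This list is partial, so the counts do not describe the exit as a whole. Mrpl23 rose by 0.34, a call that was lost without acLDL array 1 (limma adjusted p = 0.0511) and without unloaded arrays 2 and 3 (limma adjusted p = 0.118). Mrpl17, Mrpl22, Mrpl47 and Mrpl45, which in mammals faces the inner membrane, did not pass, with log2 differences of 0.25, -0.08, 0.08 and -0.03. Mrpl47 has another probe set of nearly the same mean level, on which it rose by 0.51 (limma adjusted p = 0.00168 over all probe sets with 1 symbol), and with that probe set 2 of the 6 would have risen. The genes were put into these role groups after the values were seen, and a difference of any group from its subunit was not tested.

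Mrpl24, also at the tunnel exit, was the 1 member that fell. It had 9.22, 9.21, 8.97 and 9.17 on acLDL arrays, against 9.36, 9.32, 9.27 and 9.49 on unloaded arrays (log2). The groups were apart but close, at a log2 difference of -0.22 (interval -0.38 to -0.06, limma adjusted p = 0.046). The call was lost on leaving out any 1 array other than unloaded array 3, with a limma adjusted p of up to 0.141. Mrpl1, whose bacterial relative forms a movable stalk on the other side of the subunit, had 7.53, 7.47, 7.47 and 7.53 on acLDL arrays, against 7.82, 7.55, 7.55 and 7.76 on unloaded arrays (log2). Its groups did not overlap, and its difference of -0.17 (interval -0.32 to -0.01) did not pass (limma adjusted p = 0.114). The large-subunit genes nearest to 0 were Mrpl9 and Mrpl50, with log2 differences of -0.01 (interval -0.17 to 0.14) and 0.02 (interval -0.21 to 0.25).

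The small subunit binds the messenger and reads its codons. Its largest rise was in Mrps21, a relative of a bacterial protein of the platform, the part that faces the large subunit. Mrps21 had 9.62, 9.66, 9.48 and 9.64 on acLDL arrays, against 8.99, 8.73, 8.55 and 8.72 on unloaded arrays (log2). The highest unloaded value lay well below the lowest acLDL value, and the rise was 1.80-fold (log2 difference 0.85, interval 0.67 to 1.03, limma adjusted p = 1.49e-05). Mrps26, a mitochondria-specific protein, had 8.62, 8.55, 8.48 and 8.59 on acLDL arrays, against 7.94, 7.64, 7.60 and 7.82 on unloaded arrays (log2). Unloaded arrays 2 and 3 were the lowest, and the rise was 1.75-fold (log2 difference 0.81, interval 0.64 to 0.98, limma adjusted p = 1.08e-05).

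After Mrps18a, described with its family, the next rises were in Mrps7, Mrps35 and Mrps17. Mrps7, whose bacterial relative starts assembly of the head of the subunit, averaged 8.96 ± 0.06 in acLDL cells and 8.51 ± 0.10 in unloaded cells (log2, SD, n = 4 each). Mrps35, specific to mitochondria, averaged 7.16 ± 0.15 in acLDL cells and 6.71 ± 0.03 in unloaded cells. Mrps17, a relative of a bacterial protein that binds ribosomal RNA early, averaged 7.57 ± 0.11 in acLDL cells and 7.16 ± 0.20 in unloaded cells. The groups did not overlap in any of the 3, and the log2 differences were 0.46, 0.45 and 0.40 (largest limma adjusted p = 0.00755). Without unloaded arrays 2 and 3 the call of Mrps17 was lost (log2 difference 0.23, limma adjusted p = 0.0681). The other 7 small-subunit genes that rose did so by 0.20 to 0.40 on the log2 scale.

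Small-subunit genes were again grouped by position after the values were seen, and the list of each position is partial. Across the small subunit 44.8% of genes rose, beside 12.9% of all genes tested. Of 5 platform genes listed 3 rose. Beside Mrps21 these were Mrps6 and Mrps18c, with log2 differences of 0.28 and 0.37, while Mrps11 and Mrps15 did not pass at 0.22 and -0.13. Of 4 head genes listed 1, Mrps7, rose, and Mrps9, Mrps10 and Mrps14 did not pass at 0.10, 0.24 and 0.03. Mrps10 had 6.82, 6.51, 7.37 and 7.09 on acLDL arrays, against 6.54, 6.86, 6.80 and 6.62 on unloaded arrays (log2). Its acLDL arrays spanned the unloaded range on both sides. Of 3 genes at the messenger channel and the decoding site 1, Mrps24, rose by 0.28. Mrps12, relative of the bacterial protein that guards decoding accuracy, did not pass at 0.14 (interval -0.03 to 0.32). The small-subunit genes nearest to 0 were Mrps5, at 0.01 (interval -0.14 to 0.16), and Mrps14, at 0.03 (interval -0.13 to 0.18).

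Mice have 3 relatives of 1 bacterial protein in the Mrps18 family, and they sit at different places of the ribosome. Mrps18a had 8.95, 9.01, 8.84 and 9.02 on acLDL arrays, against 8.39, 8.18, 8.13 and 8.36 on unloaded arrays (log2), a 1.62-fold rise (log2 difference 0.69, interval 0.53 to 0.85, limma adjusted p = 2.65e-05). Mrps18c had 9.39, 9.38, 9.28 and 9.50 on acLDL arrays, against 9.17, 8.97, 8.86 and 9.08 on unloaded arrays (log2), a 1.29-fold rise (interval of the log2 difference 0.20 to 0.53, limma adjusted p = 0.00368). The groups were apart in these genes, while in Mrps18b they overlapped. Mrps18b had 8.79, 8.97, 9.04 and 9.08 on acLDL arrays, against 8.89, 8.63, 8.78 and 8.81 on unloaded arrays (log2), and its difference of 0.19 (interval 0.03 to 0.36) did not pass (limma adjusted p = 0.0941). The difference between these genes was not tested.

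The symbols do not always give the place of the protein. Structures of the mammalian ribosome put Mrps18a and Mrps30 in the large subunit, and Mrps36 has since been assigned to an enzyme complex of the citric acid cycle. Mrps30 had 7.23, 7.24, 7.25 and 7.37 on acLDL arrays, against 6.99, 6.83, 6.72 and 6.95 on unloaded arrays (log2). Mrps36 had 6.53, 6.62, 6.59 and 6.64 on acLDL arrays, against 6.60, 6.29, 6.25 and 6.61 on unloaded arrays (log2). Mrps30 rose by 0.40 with groups apart (interval 0.24 to 0.55, limma adjusted p = 0.00115), while the groups of Mrps36 overlapped (log2 difference 0.16, interval -0.02 to 0.34, limma adjusted p = 0.209). With Mrps18a and Mrps30 counted in the large subunit, 27 large-subunit and 11 small-subunit genes rose.

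Members rose in both classes of origin. Of 48 members with bacterial relatives 25 rose, 1 fell and 22 had no call, with a median log2 difference of 0.24. Of 28 mitochondria-specific members 13 rose, 0 fell and 15 had no call, with a median of 0.25. The shares that rose were 52.1% and 46.4%, beside 12.9% of all genes. Those that fell were 2.08% and 0%, beside 10.5% of all genes. Mrpl53, also mitochondria-specific, shares its probe set with another gene and is not among the members.

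Some proteins of the same ribosome carry other symbols. Of 5 such genes 4 were measured, of which 3 rose and 0 fell, beside 12.9% and 10.5% of all genes, with a median log2 difference of 0.44. Chchd1, a small-subunit protein, averaged 7.39 ± 0.06 in acLDL cells and 6.84 ± 0.19 in unloaded cells (log2, SD, n = 4 each; limma adjusted p = 0.000413). Dap3, a GTP-binding protein of the small subunit, averaged 7.33 ± 0.06 in acLDL cells and 6.87 ± 0.11 in unloaded cells (limma adjusted p = 0.000323). Gadd45gip1, of the large subunit, averaged 7.07 ± 0.09 in acLDL cells and 6.64 ± 0.09 in unloaded cells (limma adjusted p = 0.000541). The groups were apart in these 3 genes. Ptcd3, a pentatricopeptide repeat protein of the small subunit, had a log2 difference of 0.08 (interval -0.10 to 0.25) and did not pass.

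The calls among factors that work with the mitochondrial ribosome are set beside those of all genes, of which 12.9% rose and 10.5% fell, and of genes above the olfactory 95th percentile, of which 19.6% rose and 13.9% fell. Of 16 measured translation factors 4 rose, 0 fell and 12 had no call (25% and 0% rose and fell), with a median log2 difference of 0.05. Tufm, the elongation factor that brings transfer RNA, rose by 0.39 ± 0.08 and Mtres1, which acts on stalled ribosomes, by 0.42 ± 0.07 (log2, SE). Lrpprc, which stabilises mitochondrial messengers, rose by 0.19, and 2810006K23Rik, listed as an older name of the release factor gene Mtrfr, by 0.25. The call of Lrpprc was lost in 8 and that of 2810006K23Rik in 9 of the alternatives, among them centring the arrays on their median (limma adjusted p = 0.106 and 0.0645) and leaving out acLDL array 2 (limma adjusted p = 0.0988 and 0.13).

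Of 29 measured assembly factors 6 rose, 3 fell and 20 had no call, that is 20.7% and 10.3% rose and fell, near the shares of genes above the olfactory 95th percentile, with a median log2 difference of 0.04. C1qbp, a matrix protein that binds RNA, rose by 0.66 ± 0.07, and Rbfa, which helps to mature the small-subunit RNA, by 0.42 ± 0.06 (log2, SE). Yars2, the mitochondrial tyrosyl-tRNA synthetase, stands on this list although it charges transfer RNA, and rose by 0.55. Nsun4, which methylates the small-subunit RNA and takes part in joining the subunits, fell by 0.42.

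Among 9 measured genes that copy, read and keep the mitochondrial genome 2 rose, 2 fell and 5 had no call, that is 22.2% and 22.2% rose and fell, beside 12.9% and 10.5% of all genes, with a median log2 difference of -0.18. Polrmt, the mitochondrial RNA polymerase, rose by 0.27 and Tefm, its elongation factor, by 0.25; Tefm lay below the olfactory 95th percentile in both groups, and its call was lost with the span trend removed (limma adjusted p = 0.0602) and without unloaded arrays 2 and 3 (limma adjusted p = 0.0801). Ssbp1, the single-stranded DNA-binding protein of the nucleoid, fell by 0.53 and Tfb2m, a transcription factor, by 0.34, the call of Tfb2m being lost without unloaded arrays 1 and 4 (limma adjusted p = 0.0607). Tfam, which packs the mitochondrial genome, differed by -0.24 (interval -0.54 to 0.05) and did not pass.

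Of 12 genes listed as regulators of mitochondrial growth 4 rose, 0 fell and 8 had no call, with a median log2 difference of 0.07. That is 33.3% and 0% rose and fell, beside 12.9% and 10.5% of all genes. Among genes above the olfactory 95th percentile 19.6% rose and 13.9% fell. Myc, a growth regulator, rose by 0.69 ± 0.07, and Pprc1, a coactivator of the PGC-1 family, by 0.37 ± 0.06 (log2, SE). Clpp and Lonp1 stand on this list although they are proteases of the matrix, and rose by 0.36 and 0.26. Myc and Pprc1 were the only other genes of the list that rose. The call of Lonp1 was lost without unloaded arrays 2 and 3 (limma adjusted p = 0.0521). The transcription factor genes Nrf1, Gabpa, Yy1 and Esrra did not pass, with log2 differences of 0.07, -0.19, -0.12 and 0.12.

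Promoters of the members were searched for letters that such factors are known to bind. RefSeq windows of 250 bases before to 50 after the gene start (build GRCm38.p6) were matched by symbol for 68 of the 77 members. The motif CCGGAAG of the ETS family, to which GABP belongs, was in the windows of 36.8% of the 68, against 19.4% of the 9337 genes above the olfactory 95th percentile and 9.93% of all 27025 genes with a window. GCGCANGCG, the core of the NRF1 motif, was in 23.5% of members, 14.5% of genes above that level and 7.03% of all. AAGATGGCG, the core of the YY1 motif, was in 11.8% of members, 3.52% of genes above that level and 1.64% of all. CACGTG, the E-box read by Myc, was in 7.35% of members, 11.6% of genes above that level and 8.09% of all. Members that rose held the ETS motif in 37.9% of 29 windows and the NRF1 core in 24.1%, and members that did not pass held them in 36.8% and 23.7% of 38. TCAAGGTCA (ERR) and TCACNCCAC (a sterol element) were in 0 of the 68 windows, against 0.364% and 1.46% of genes above that level and 0.466% and 1.44% of all. Both strands were searched, and the motifs and windows shown were chosen after the values were seen.

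The windows below belong to the genes with the largest rise in each subunit, to Mrps26 and Mrps18a, which rose by at least 1.5-fold and hold more than 1 kind of match, and to Mrpl24, which fell. They run 5′ to 3′ on the gene's strand, and capitals mark matches to any of the 6 motifs.
Mrpl20 promoter, chr4:155802628-155802927, plus strand: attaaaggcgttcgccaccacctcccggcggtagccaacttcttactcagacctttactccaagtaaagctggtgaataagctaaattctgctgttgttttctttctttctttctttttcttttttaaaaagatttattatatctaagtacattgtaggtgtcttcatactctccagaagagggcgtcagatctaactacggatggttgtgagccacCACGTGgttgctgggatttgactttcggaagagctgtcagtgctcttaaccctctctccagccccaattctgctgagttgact
Mrps21 promoter, chr3:95871465-95871764, minus strand: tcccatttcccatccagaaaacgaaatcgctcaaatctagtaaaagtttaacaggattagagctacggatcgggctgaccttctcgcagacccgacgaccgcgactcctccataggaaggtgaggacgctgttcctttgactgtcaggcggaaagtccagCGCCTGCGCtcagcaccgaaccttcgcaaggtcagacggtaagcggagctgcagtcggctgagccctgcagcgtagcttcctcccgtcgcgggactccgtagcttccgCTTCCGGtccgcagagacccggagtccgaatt
Mrps26 promoter, chr2:130563507-130563806, plus strand: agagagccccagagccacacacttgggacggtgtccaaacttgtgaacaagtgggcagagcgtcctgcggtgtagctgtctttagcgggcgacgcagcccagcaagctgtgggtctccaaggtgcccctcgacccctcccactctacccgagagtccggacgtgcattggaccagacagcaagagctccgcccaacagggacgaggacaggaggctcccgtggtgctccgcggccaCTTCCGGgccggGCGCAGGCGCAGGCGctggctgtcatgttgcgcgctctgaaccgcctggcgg
Mrps18a promoter, chr17:46110754-46111053, plus strand: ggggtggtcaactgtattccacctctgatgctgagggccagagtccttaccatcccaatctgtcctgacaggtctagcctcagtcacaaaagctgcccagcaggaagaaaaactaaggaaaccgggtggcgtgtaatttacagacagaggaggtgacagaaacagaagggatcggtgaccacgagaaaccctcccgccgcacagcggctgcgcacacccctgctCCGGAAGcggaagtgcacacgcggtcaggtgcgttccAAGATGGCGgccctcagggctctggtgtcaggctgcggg
Mrpl24 promoter, chr3:87919294-87919593, plus strand: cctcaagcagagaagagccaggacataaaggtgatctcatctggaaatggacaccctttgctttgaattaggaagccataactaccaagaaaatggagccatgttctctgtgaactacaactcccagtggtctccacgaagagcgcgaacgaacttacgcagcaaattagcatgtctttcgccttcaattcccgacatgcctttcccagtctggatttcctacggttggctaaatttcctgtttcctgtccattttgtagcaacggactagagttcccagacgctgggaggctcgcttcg
In Mrpl20 the 1 match is an E-box. Repeats, sequences found in many copies across the genome, were not masked, and whether this match lies in a repeat was not checked. Binding at the matches was not tested. In Mrps21 the 2 matches are NRF1 and ETS, and in Mrps26 an ETS match is followed by 2 NRF1 matches that overlap. Mrps18a holds an ETS and a YY1 match, and Mrpl24 holds 0 matches.

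The 8 arrays did not all behave alike. The median deviation of the large-subunit genes from their own mean was 0.18, 0.13, 0.08 and 0.10 on acLDL arrays 1 to 4, against 0.00, -0.20, -0.18 and -0.09 on unloaded arrays 1 to 4 (log2). For the small-subunit genes it was 0.14, 0.14, 0.08 and 0.19 on acLDL arrays, against -0.07, -0.15, -0.21 and -0.10 on unloaded arrays. In both subunits all 4 acLDL arrays lay above all 4 unloaded arrays, and unloaded array 1 came closest to them. The lowest of the 8 values was on unloaded array 2 or 3 in 54 of the 77 members. The median SD of a member was 0.0809 over acLDL arrays and 0.116 over unloaded arrays, and 56 members had the larger SD in unloaded cells. The counts of lowest values and of larger SDs are for members only, without the shares over all genes.

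**Figure D4:**
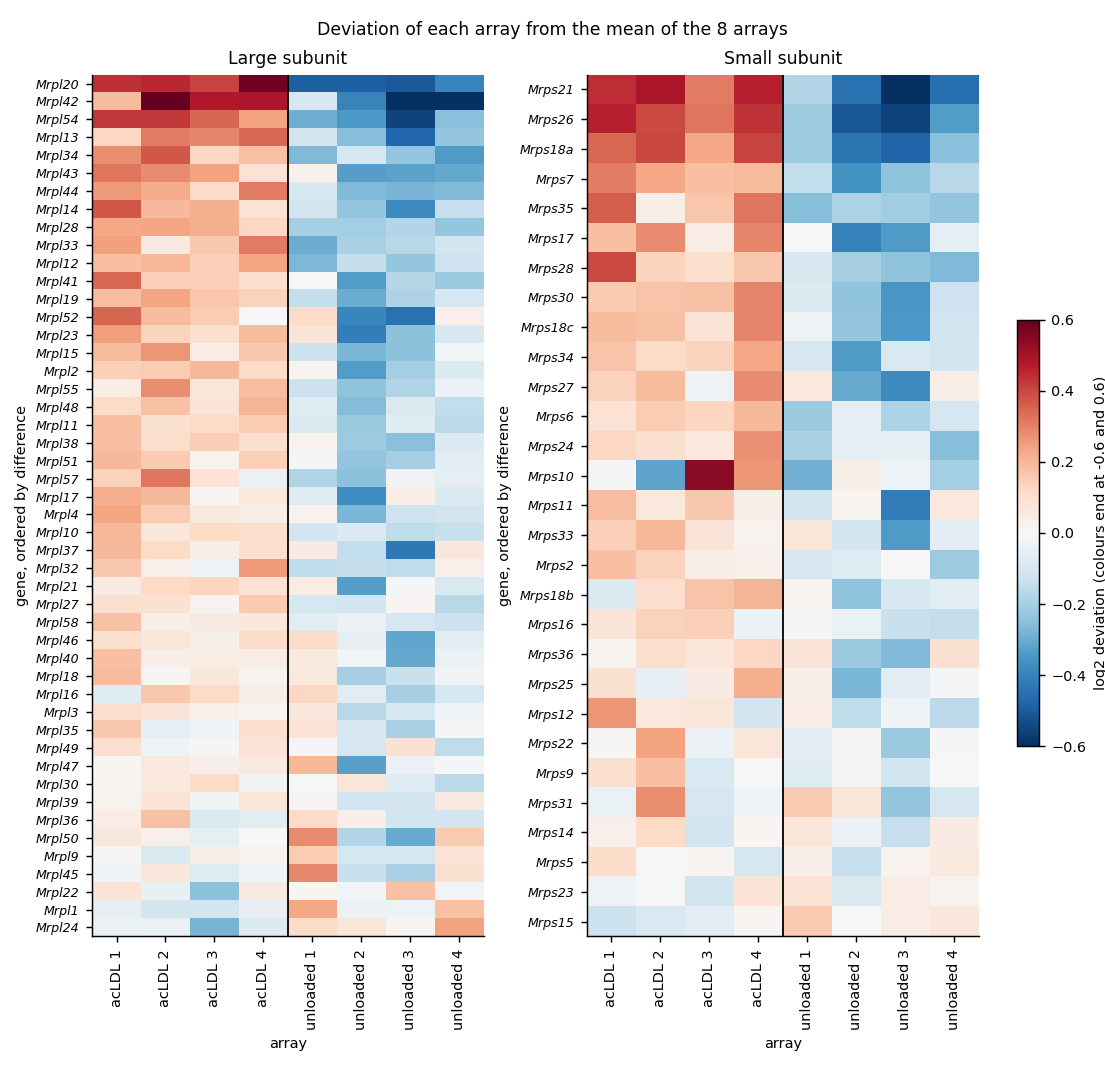
Log2 deviation (colour, ending at -0.6 and 0.6) of each array (columns, acLDL 1 to 4 then unloaded 1 to 4) from the gene's mean of 8 arrays, for large-subunit genes on the left and small-subunit genes on the right, ordered by difference. Red is above and blue below the mean, and 54 of the 77 members have their lowest value in the columns of unloaded arrays 2 and 3.

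Without unloaded arrays 2 and 3, 18 large-subunit and 12 small-subunit genes rose, 2 large-subunit genes fell, and 30 of the 38 members that rose on all arrays kept the call, while 12.2% of all genes rose. The medians were then 0.17 and 0.16. Without unloaded arrays 1 and 4, 29 and 14 genes rose, beside 12.8% of all genes, with medians of 0.29 and 0.27.

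Signal also moved with gene length, and the members are short genes, with a median genomic span of 7749 bases against 17738 over all genes tested. Across genes above background the Spearman correlation of an array's deviation with span was -0.12, -0.05, -0.20 and -0.01 on acLDL arrays, against 0.23, -0.02, -0.05 and 0.21 on unloaded arrays. Across the 77 members the correlation of the log2 difference with span was -0.22 and with mean level -0.115 (Spearman, as a description, since the genes share the arrays). With each array's trend with span removed, 19 large-subunit and 12 small-subunit genes rose and 1 of each fell, beside 11.2% of all genes that rose, with medians of 0.18 and 0.17 beside -0.04 over all genes.

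**Figure D5:**
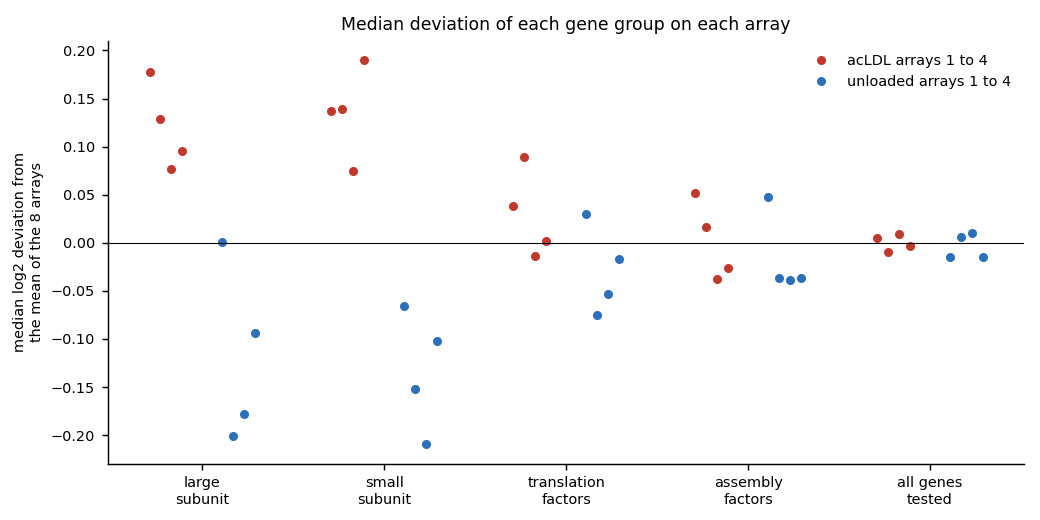
Median log2 deviation from the mean of 8 arrays (vertical axis) of 5 gene groups on each array, acLDL arrays in red on the left and unloaded arrays in blue on the right of each group. The acLDL and unloaded points are apart in both subunits and overlap for the 16 translation factors, the 29 assembly factors and all genes tested.

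Genes with another probe set showed how far a value depends on its probes. The brighter and the dimmer probe set gave log2 differences of 0.34 and 0.34 in Mrpl23, 0.36 and 0.34 in Mrpl41, 0.22 and 0.20 in Mrps33 and 0.16 and 0.13 in Mrps36. Mrpl27 gave 0.18 and 0.19, with the dimmer probe set not past the threshold. Mrps5 gave 0.01 and 0.16, and neither passed. The probe sets of Mrpl51 and Mrpl47 differed in call. Mrpl51 rose by 0.26 on the brighter probe set, a call lost in 6 alternatives, and differed by 0.04 ± 0.07 (SE) on the other. Mrpl47 differed by 0.08 ± 0.09 on the brighter probe set and rose by 0.51 ± 0.10 on the other (SE; limma adjusted p = 0.00168 over all probe sets with 1 symbol), with mean levels below the olfactory 95th percentile on both. RefSeq names pseudogenes of Mrpl23, Mrpl27, Mrpl48 and Mrps36, so the values of these genes are uncertain where probes match both copies. The place in the genome that each probe set reads was not checked. The brighter probe sets of Mrpl41, Mrpl51 and Mrps33 may therefore also read another copy, which leaves the rise of Mrpl51 uncertain.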

How the data were processed

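RNA of the cultured macrophages was read on 8 Affymetrix Mouse Gene 1.0 ST arrays. The deposited values are on a log2 scale and come from RMA, as named in the submitters' processing notes, without a version. RMA matches the arrays to each other, which hides a change shared by all genes, and shrinks differences of dim genes.

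The table held 35557 probe sets. The platform annotation gave 1 symbol to 21789 and several to 1621; the other 12147 were unnamed here. Checking symbols by Entrez identifier against RefSeq changed 0. Each of the 19938 genes was represented by its brightest probe set. Differences (acLDL minus unloaded) were fitted with limma 3.58.1 (R 4.3.3; lmFit and eBayes, no block, two-sided, Benjamini-Hochberg threshold 0.05), a step tested on simulated data. With 4 arrays per group the median standard error was 0.0737.

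Members and lists were chosen with earlier results of these data known. Genes named by rule were, per subunit, the 6 largest rises, up to 4 largest falls and the 2 nearest 0, the Mrps18 genes, Mrps30, Mrps36 and genes with several probe sets, and in other lists up to 4 of the largest changes plus Tufm, Tfam, Dap3 and Ptcd3. Other names were chosen after their values were seen. The NRF1 and YY1 motifs were shortened to 9 letters after longer forms had been searched. Same-numbered arrays are not tied to a shared mouse or day by the labels, and their deviations correlated at -0.163 to 0.301. Figures were drawn with matplotlib 3.10.9 (Python 3.11.15). The alternatives tried concern probe sets, normalisation, the span trend, the limma prior, array weights, a replicate block, arrays left out and subunit membership.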

Additional observations from a re-analysis of the deposited data

Results flagged for a closer look

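Of 96 groups of 4 arrays examined for the genes given with values, 5 held an array set far apart from the others by Dixon's criterion, about as many as chance gives at 1 in 20. Mrpl20 was highest on unloaded array 4 at 7.426, with the next at 7.335 (log2), still below every acLDL array. Mrpl43 was highest on unloaded array 1 at 7.512, with the next at 7.176. Mrps30 was highest on acLDL array 4 at 7.365, with the next at 7.25. Rbfa was lowest on acLDL array 3 at 7.827, with the next at 7.985. Tefm was lowest on acLDL array 1 at 5.717, with the next at 5.851.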

How the results depend on the processing

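The number of arrays and the brightness over background limit precision. No named gene that had passed changed direction (6 members that had not passed changed sign), and the counts of members that rose stayed within 1.5 times of 25 and 13 under all alternatives. Large-subunit members that fell numbered 0 with arrays centred on their median and without unloaded arrays 1 and 4, and 2 without unloaded arrays 2 and 3. In the small subunit 1 fell after cyclic loess and with the span trend removed. The small-subunit median was 0.155 without unloaded arrays 2 and 3. The median of the translation factors was 0.130 without unloaded arrays 1 and 4 and -0.00740 without unloaded arrays 2 and 3, and that of the assembly factors -0.00569 with the span trend removed. The cause was not tested. With the replicate number as a block 25 and 13 members rose and 1 fell, with medians of 0.245 and 0.225; 3 of 8 arrays correlated best with their own number. Leaving out 1 array at a time gave 20 to 26 large-subunit and 12 to 14 small-subunit members that rose, 0 to 1 and 0 that fell, and medians of 0.010 to 0.083 for the assembly factors. Calls of named members were lost in 32 and gained in 11 comparisons with an alternative, most often lost for Mrpl27 (14) and Mrpl24 (9). For the other named genes 21 calls were lost and 1 was gained, most often lost for 2810006K23Rik (9) and Lrpprc (8).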

Other observations

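Some messages that the mitochondrial ribosome translates had probe sets with 1 symbol. The cytochrome oxidase subunit gene COX2 averaged 12.63 ± 0.08 in acLDL cells and 12.81 ± 0.04 in unloaded cells (log2, SD, n = 4 each) on its brighter probe set, a fall by 0.18 (limma adjusted p = 0.0458 over all probe sets with 1 symbol), and its other probe set differed by -0.15 (adjusted p = 0.0907). The complex I subunit gene ND3 averaged 11.43 ± 0.11 in acLDL cells and 11.33 ± 0.07 in unloaded cells, and neither of its probe sets passed. Both were looked up after the other values were seen.

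The probe set shared by Mrpl53 and Ccdc142 had log2 levels of 7.29, 7.60, 7.43 and 7.44 on acLDL arrays, against 7.26, 7.23, 7.41 and 7.37 on unloaded arrays, and did not pass.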
